A study of Mus musculus with 6 samples.

Results

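The transcripts of the proteasome and its assembly factors were measured in the gastrocnemius, a calf muscle, of aged mice fed farnesol or vehicle. Members were all gene symbols beginning with Psma, Psmb, Psmc, Psmd, Psme, Psmf or Psmg followed by a number, which gave 50 of the 23238 distinct symbols in the tables. None of the 50 stood on more than 1 line. They comprised 19 core genes (Psma and Psmb), 20 cap genes (Psmc and Psmd), 5 activator genes (Psme), 4 chaperone genes (Psmg) and the inhibitor-like Psmf1. The pattern also takes in Psmc3ip, which encodes a cofactor of meiotic recombination and no proteasome subunit, so it was counted in the family and kept out of the cap.

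All mice were wild type on the C57/BL6J background and 26 months old. The vehicle group (n = 3 libraries) received 5% DMSO in saline with 0.85% NaCl by mouth. The farnesol group (n = 3) received 350 mg/kg of farnesol, the alcohol of the farnesyl lipid that is attached to some proteins, and both were dosed for 30 days. Labels describe replicates as biological without naming single animals, and the tests here reflect library-to-library spread alone. The labels name only farnesol and vehicle at 1 age, so no comparison with young muscle could be made.

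The proteasome is the large protease that degrades ubiquitin-tagged proteins in the cytosol and nucleus. Its core is a barrel of alpha rings, which form the gate, and beta rings, which carry the protease sites inside. The cap binds ubiquitin chains, removes them, unfolds the substrate with a ring of ATPases and feeds it into the barrel. In wasting muscle, much of the breakdown of contractile proteins runs through this route, and proteasome genes are often raised together with the muscle ubiquitin ligases.

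Libraries held 9895700 to 12707751 counts. Fibre markers were abundant in each of them: Acta1, skeletal actin, lay between 25502 and 44509 CPM (counts relative to library size, with sizes scaled by edgeR's trimmed mean of M-values). Vehicle replicate 3 was the lowest for Acta1. Its sum of 12 fibre markers was also the lowest, 181862 CPM against 207499 to 272900 CPM in the others. The library of farnesol replicate 1 had the lowest share of the ribosomal RNA precursor Rn45s, 4.97% of counts against 9.92% to 15.4% in the others. Vehicle replicate 3 had the highest and vehicle replicate 2 the lowest summed level of 19 leukocyte and macrophage markers, 244 and 101 CPM, with 127 to 169 CPM in the remaining libraries. Bulk levels cannot tell fewer cells of a type from less RNA per cell.

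Farnesol was compared with vehicle to ask whether the proteasome transcripts of aged muscle differ after feeding. No member's difference passed the test: of the 49 members tested by edgeR's quasi-likelihood fit, 0 passed the threshold of 0.05 after adjustment, where 0.0% of all 11674 tested genes passed. The adjusted edgeR p of each member was 0.999989. Before adjustment 1 member, Psmb10, was under that threshold, on the higher side, as were 204 genes in all (1.75%), or 351 in either direction (3.01%). DESeq2 and limma-voom also called 0 genes. The summed levels of core and cap after farnesol were 0.982 and 0.909 of those in vehicle, with both differences smaller than the vehicle SD. The catalytic subunit of the immunoproteasome Psmb10 and the chaperone Psmg1 had the highest fitted values of the family, 1.66-fold and 1.54-fold, both from low counts.

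Of the 49 tested members 31 had a fitted value below 0 and 18 above, and the median log2 fold change was −0.05. Over all tested genes 50.9% lay below 0 and the median was −0.01. The 95% interval of 31 members lay wholly within a 1.5-fold change in either direction, as it did for 28.7% of all tested genes, and that of 44 members within 2-fold. Precision followed the level: 96.7% of the 30 members with at least 40 CPM had an interval within 1.5-fold, against 83.3% of the 2584 genes of such a level, and 10.5% of the 19 members below it. For the abundant subunits other than Psmd8 (fold interval 0.620 to 1.05) a 1.5-fold change in either direction would thus lie outside the interval. For Psmb9 (0.171 to 1.61) it would not, and for Psmg1 (0.923 to 2.58) a 1.5-fold rise would not.

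**Figure D1:**
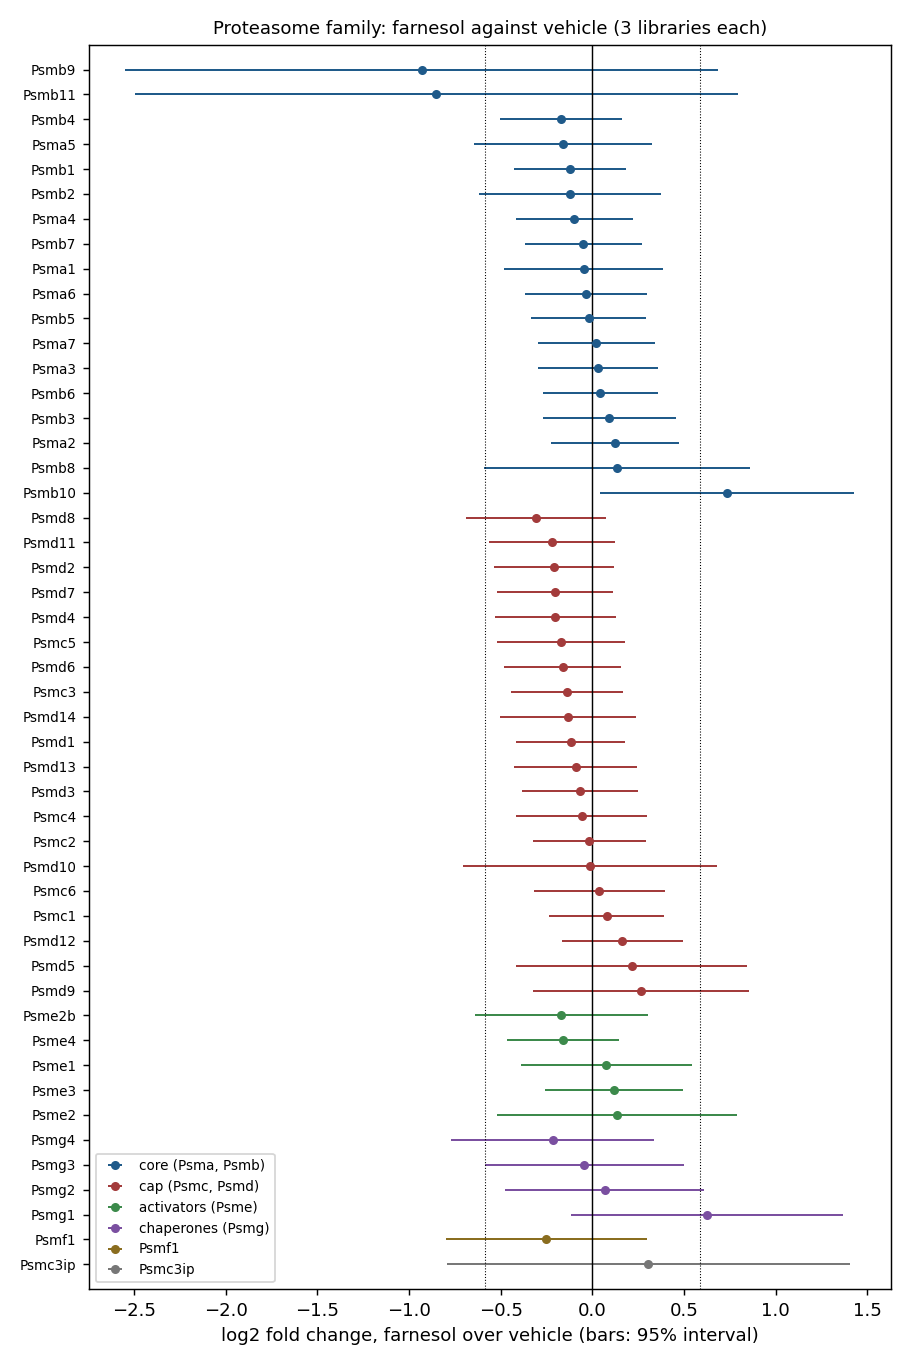
Fitted log2 fold change of farnesol over vehicle (x axis) for each of the 49 tested members (rows, coloured by class), with bars for the 95% interval and dotted lines at a 1.5-fold change. Every bar crosses 0 except that of Psmb10, and the widest bars belong to Psmb9 and Psmb11.

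Levels of different genes were compared per kilobase of the longest annotated transcript, as CPM per kb averaged over the 6 libraries. The kit is designed to count 1 tag per transcript, in which case the order by plain CPM applies, so both are given. Psmd4, the ubiquitin receptor Rpn10 of the cap, stood first on both scales, at 270 CPM per kb (571.7 CPM). Psmd7, a lid subunit, came next on both, at 202 CPM per kb (319 CPM). Within the core, the gate subunit Psma7 led per kilobase at 158 CPM per kb (239 CPM), and Psmb7 led by CPM at 264 CPM (92.6 CPM per kb). The catalytic subunits Psmb6 and Psmb5 stood at 129 and 117 CPM per kb (125 and 105 CPM). The median of tested members was 42.9 CPM per kb in the core and 58.9 CPM per kb in the cap, against 15.3 in the activators and 9.60 in the chaperones. By plain CPM these medians were 84.3, 125, 25.6 and 12.4 CPM, in the same order. Chaperones act in assembly and are not built into the finished particle. Summed over members, the cap held 59.4% to 64.0% of the family's CPM in a library and the core 28.7% to 32.4%.

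The 3 protease subunits of the constitutive core were almost level between the groups. Psmb5, which carries the chymotrypsin-like site, stood at 109, 104 and 104 CPM in vehicle libraries and at 98.4, 115 and 99.2 CPM after farnesol. Its fold was 0.986 (95% interval 0.793 to 1.23). Psmb6, with the caspase-like site, stood at 136, 112 and 121 CPM in vehicle and at 134, 124 and 123 CPM in farnesol libraries, a fold of 1.03 (0.830 to 1.28). Both genes had overlapping groups and intervals narrower than 1.5-fold on either side. Psmb7, with the trypsin-like site, stood at 259, 309 and 238 CPM and at 256, 292 and 229 CPM, a fold of 0.966 (0.774 to 1.205). Replicate 2 was the highest library of each group for Psmb7, and part of its exon sequence, 11.8%, is shared with Nek6 on the opposite strand.

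Of the 18 core genes tested, 11 were lower and 7 higher, a median of −0.04 on the log2 scale and 12 intervals within 1.5-fold. The 7 alpha-ring genes tested spanned only −0.16 (Psma5) to 0.12 (Psma2). Psmb4, a beta-ring subunit without protease activity, had the lowest fitted value among core genes above 10 CPM. It stood at 166, 124 and 143 CPM in vehicle and at 144, 132 and 109 CPM in farnesol libraries. The groups overlapped, and its log2 fold change was −0.17 (SE 0.16). The summed level of the core was 1686, 1557 and 1627 CPM in the vehicle libraries and 1656, 1604 and 1521 CPM in the farnesol libraries. The means were 1624 ± 64.8 CPM (SD, n = 3) and 1594 ± 68.4 CPM, a ratio of 0.982, so the difference was smaller than either SD.

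Subunits restricted to other tissues were at or near the counting limit. Psma8, the testis form of an alpha subunit, had 0 counts in 5 libraries and 3 counts in farnesol replicate 3, and it was not tested. A count of 0 allows up to 3 counts, or 0.251 to 0.310 CPM depending on the library, for counting error only. Psmb11, the thymus protease subunit, had 14, 13 and 18 counts in vehicle and 11, 5 and 9 counts in farnesol libraries. It was the 1 tested member whose groups did not overlap, lower after farnesol, as were 4.07% of all tested genes, and none was higher without overlap (4.75% of all). The low-count filter kept Psmb11 through the vehicle group, where it was higher, so this separation lends no support to a difference. The fold of Psmb11 was 0.554 with an interval of 0.177 to 1.73. It lies 7315 bases from Psmb5 on chromosome 14 (mm10).

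The immunoproteasome replaces the 3 constitutive protease subunits by Psmb9, Psmb10 and Psmb8, which immune cells carry and which interferon-gamma raises elsewhere. Psmb10 stood at 4.22, 5.06 and 7.03 CPM in vehicle and at 6.87, 9.12 and 11.2 CPM in farnesol libraries. Farnesol replicate 1 lay just under vehicle replicate 3, so the groups overlapped by that 1 library. Its fold was 1.66 (95% interval 1.03 to 2.69), from 44 to 109 counts per library. Leaving out 1 library at a time gave log2 fold changes from 0.55 (without farnesol replicate 3) to 0.97 (without vehicle replicate 3), around 0.73 with all libraries. It was under 0.05 before adjustment in edgeR and limma-voom and not in DESeq2, nor in the edgeR fits that left out replicate 1 or 2 of vehicle, or replicate 2 or 3 of farnesol.

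Its partners did not share that pattern. Psmb8, which replaces Psmb5, stood at 6.14, 4.15 and 6.78 CPM in vehicle and at 5.73, 7.45 and 5.57 CPM in farnesol libraries, a fold of 1.098 (0.663 to 1.82). Psmb9, which replaces Psmb6, stood at 0.959, 1.32 and 3.14 CPM and at 1.498, 1.004 and 0.310 CPM, from 3 to 37 counts per library. Vehicle replicate 3, the library with the most leukocyte marker signal, was the highest for Psmb9. Its fold was 0.525 (0.171 to 1.61), and 5.79% of its exon sequence is shared with Tap1 on the opposite strand. Whether these 3 genes differ from each other in their response was not tested.

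The counts of the 3 immunoproteasome genes together, as a percentage of those of the 3 constitutive genes, were 2.25%, 2.004% and 3.66% in the vehicle libraries and 2.88%, 3.31% and 3.80% in the farnesol libraries. The vehicle mean was 2.64% ± 0.895 and the farnesol mean 3.33% ± 0.458 (SD, n = 3 each), with overlapping groups. By single pairs the percentage of Psmb10 over Psmb7 went from 2.07% ± 0.761 to 3.57% ± 1.18, that of Psmb8 over Psmb5 from 5.38% ± 1.27 to 5.97% ± 0.452, and that of Psmb9 over Psmb6 from 1.49% ± 0.989 to 0.727% ± 0.438. The direction therefore depended on the pair. Of the 19 leukocyte and macrophage markers 13 could be tested. The fitted value was lower after farnesol for 10 of these and higher for 3, and none passed. Adgre1, the F4/80 antigen of macrophages, was the marker with the smallest p, at 5.94 ± 0.637 and 2.87 ± 1.28 CPM. The pan-leukocyte Ptprc stood at 5.00 ± 1.05 and 3.89 ± 1.39 CPM. The T cell marker Cd3e stood at most at 0.575 CPM. The summed marker level was 101 to 244 CPM in vehicle and 127 to 169 CPM in farnesol libraries. For 9 endothelial, fibroblast and adipocyte markers the fitted value was higher after farnesol in all 9, with a median of 0.18 on the log2 scale and none passing, and their sum was 812 to 868.4 CPM in vehicle and 868.3 to 967 CPM in farnesol libraries. Among them the adipocyte genes Plin1 (1.28, SE 0.51), Cidec (0.88, SE 0.26) and Adipoq (0.46, SE 0.25) had the highest log2 fold changes. The groups of Plin1 and Cidec did not overlap, where 4.75% of all tested genes were higher without overlap. The endothelial genes Kdr (0.00035, SE 0.25) and Cdh5 (0.0062, SE 0.27) were nearly level. The part of these cell types in the values of Psmb8, Psmb9 and Psmb10 was not tested.

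**Figure D2:**
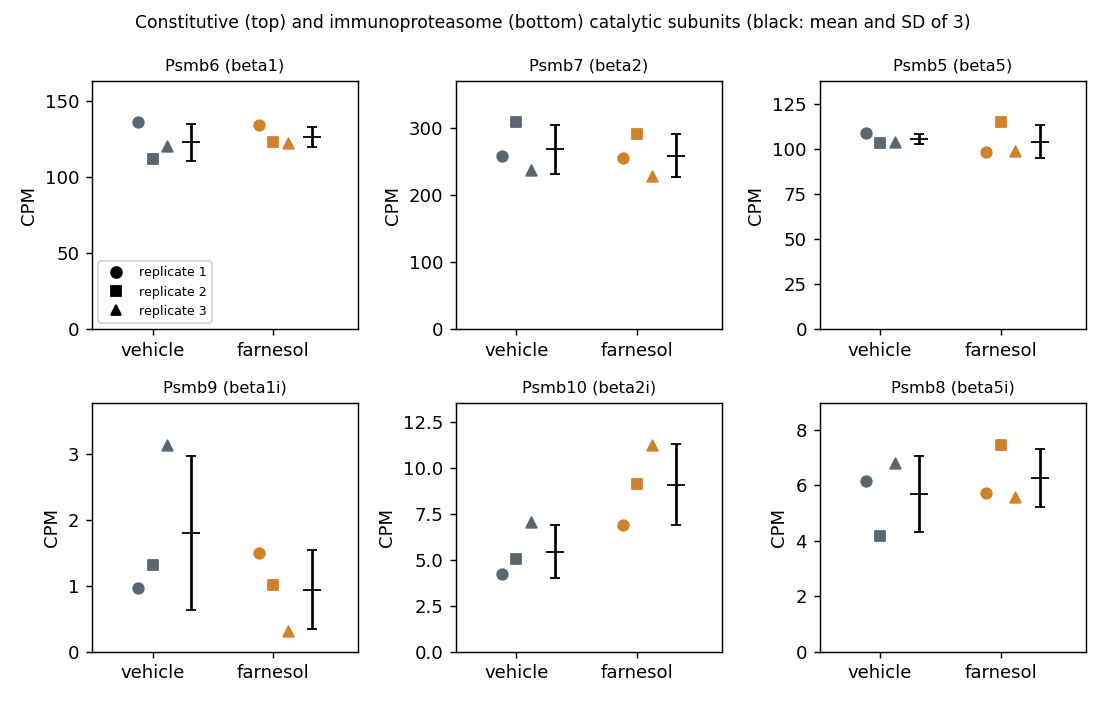
Level in CPM (y axis, from 0) of the 3 constitutive (top) and 3 immunoproteasome (bottom) protease subunits in each library, by group (x axis), with the marker shape giving the replicate number and black bars the mean and SD of 3 libraries. Farnesol and vehicle libraries overlap in all 6 panels, and for Psmb10 the farnesol libraries at 9.12 and 11.2 CPM lie above the highest vehicle library, at 7.03 CPM.

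Promoter sequence was read for 42 of the 50 members from RefSeq (GRCm38.p6, the assembly of mm10) as 45 windows from 250 bases before to 50 bases after a transcript start. No such window was read for Psma8, Psmb1, Psmb2, Psmb7, Psmc3, Psmd3, Psmd7 and Psmg2. Stretches of the following genes are shown because they are a constitutive protease subunit, an immunoproteasome protease subunit, the most abundant cap gene and the chaperone with the highest fitted value. Each is read 5′ to 3′ on the gene's strand, ends before the start site, and has the motif match in capitals.
Psmb5, chr14:54618004-54618072, minus strand, TGACNNNGC, 47 bases before the start: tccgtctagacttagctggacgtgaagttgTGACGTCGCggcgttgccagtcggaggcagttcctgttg
Psmb8, chr17:34198068-34198136, plus strand, TTCNNNGAA, 97 bases before the start: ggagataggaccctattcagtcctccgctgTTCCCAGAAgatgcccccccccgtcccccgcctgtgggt
Psmd4, chr3:95042675-95042739, minus strand, CCAAT read on the other strand, 95 bases before the start: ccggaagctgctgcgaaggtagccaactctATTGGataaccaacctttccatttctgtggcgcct
Psmg1, chr16:95991165-95991210, minus strand, TTCNNNGAA, 243 bases before the start: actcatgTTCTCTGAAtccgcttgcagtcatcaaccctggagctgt

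Motifs were searched on both strands, and a match is a description of the letters, not of binding. CCAAT, the box of the factor NF-Y, was in 33.3% of the family's windows and in 37.4% of all 32851 windows of that length. TGACNNNGC, the core of the antioxidant response element that NRF1 and NRF2 bind, was in 13.3% against 12.4%. Psmb5 and Psmb6 were the 2 with it among the 15 core genes that had a window, which leave out Psmb7. Outside the core Psmc6, Psmd9, Psmd12 and Psme4 held it. The core of the interferon-stimulated response element was in 11.1% (5 of 45 windows) against 3.44%, that is in Psmb3, Psmd4, Psmd9, Psme1 and Psmg4. None of the immunoproteasome protease genes Psmb8, Psmb9 and Psmb10 held it, nor did Psme2. TTCNNNGAA, a gamma-activated sequence, was in 6.67% against 8.30%, and the E-box CACGTG in 8.89% against 7.15%. The CCAAT match printed for Psmd4 does not overlap that gene's interferon element match, which begins 80 bases before the start.

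No cap gene passed the test, and the summed level of the cap overlapped between the groups. Its sum was 3536, 2850.0 and 3627 CPM in the vehicle libraries and 3097, 3049 and 2956 CPM in the farnesol libraries. Vehicle replicates 1 and 3 thus lay above all farnesol libraries, and vehicle replicate 2 lay below them all. The means were 3338 ± 425 CPM and 3034 ± 71.6 CPM, a ratio of 0.909, with the difference smaller than the vehicle SD. Fitted values were below 0 for 15 of 20 cap genes (50.9% of all tested genes), a median of −0.10 on the log2 scale and a range from −0.31 to 0.27. None had a separated group, and 16 had an interval within 1.5-fold. The summed cap counts were 210%, 183% and 223% of the summed core counts in the vehicle libraries and 187%, 190.1% and 194% in the farnesol libraries, which also overlap.

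**Figure D3:**
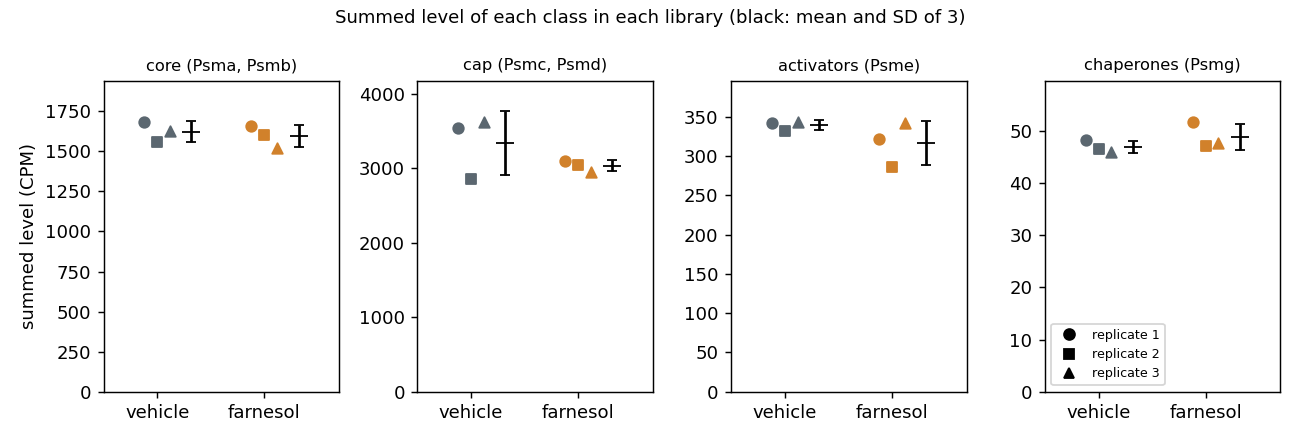
Summed level in CPM (y axis, from 0) of core, cap, activator and chaperone genes in each library, by group (x axis), with the marker shape giving the replicate number and black bars the mean and SD of 3 libraries. In the cap panel vehicle replicates 1 and 3, at 3536 and 3627 CPM, stand above the farnesol libraries and vehicle replicate 2, at 2850.0 CPM, stands below them.

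The 6 ATPase genes of the cap, Psmc1 to Psmc6, lay between −0.17 (Psmc5) and 0.08 (Psmc1), with 4 lower and 2 higher and all 6 intervals within 1.5-fold. The 14 genes of the Psmd series encode the scaffolds, ubiquitin receptors and lid, and also the assembly chaperones Psmd5, Psmd9 and Psmd10. Their median was −0.13, with 11 lower and 3 higher (Psmd5, Psmd9 and Psmd12). Psmd8, a lid subunit, had the lowest fitted value of the cap. It stood at 241, 171 and 293 CPM in vehicle and at 214, 201 and 154 CPM in farnesol libraries, with vehicle replicate 2 inside the farnesol range. Its log2 fold change was −0.31 (SE 0.18).

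Vehicle replicate 2 was also the lowest vehicle library in other cap genes of small p. Psmd4 stood at 693, 473.9 and 667 CPM in vehicle and at 533, 552 and 510.4 CPM in farnesol libraries, a log2 fold change of −0.20 (SE 0.16). Psmd2, the scaffold and ubiquitin receptor Rpn1, stood at 285, 199.9 and 281 CPM and at 228, 214 and 221 CPM (−0.21, SE 0.16). Psmd7, the partner of the cap's deubiquitinase, stood at 365, 303 and 357 CPM and at 253, 332 and 306 CPM (−0.20, SE 0.15). In all 3 genes vehicle replicates 1 and 3 exceeded every farnesol library and vehicle replicate 2 did not. Psmd11, the lid subunit Rpn6, differed: its vehicle replicate 3 alone stood out, with 124, 126 and 178 CPM in vehicle and 115, 116 and 137 CPM in farnesol libraries (−0.22, SE 0.17).

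The cap's median shifted when single libraries of either group were left out, each time by less than the SD of its library means, 0.14. Vehicle replicate 2 was the lowest library in 8 of 20 cap genes, and vehicle replicates 1 and 3 were the highest in 8 each. Without vehicle replicate 2 the cap's median log2 fold change was −0.17, 17 of 20 genes were lower, and the values of Psmd8 (−0.49, SE 0.18), Psmd2 (−0.36, SE 0.16) and Psmd4 (−0.36, SE 0.16) were under 0.05 before adjustment, with an adjusted edgeR p of 0.998 each. The median was −0.03 without vehicle replicate 1, −0.04 without vehicle replicate 3 and −0.07 without farnesol replicate 2. Vehicle replicate 2 had the lowest leukocyte marker sum and the highest share of Rn45s, 15.4% of counts. Farnesol replicates 2 and 3 were near that share, at 14.8% and 14.2%. With Rn45s left out of the counts the cap's median was −0.105, as with it. Vehicle replicate 3 had the highest leukocyte marker sum and the lowest fibre marker sum. The part of the Rn45s share, of the leukocyte markers or of the fibre markers in the cap's values was not tested.

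**Figure D4:**
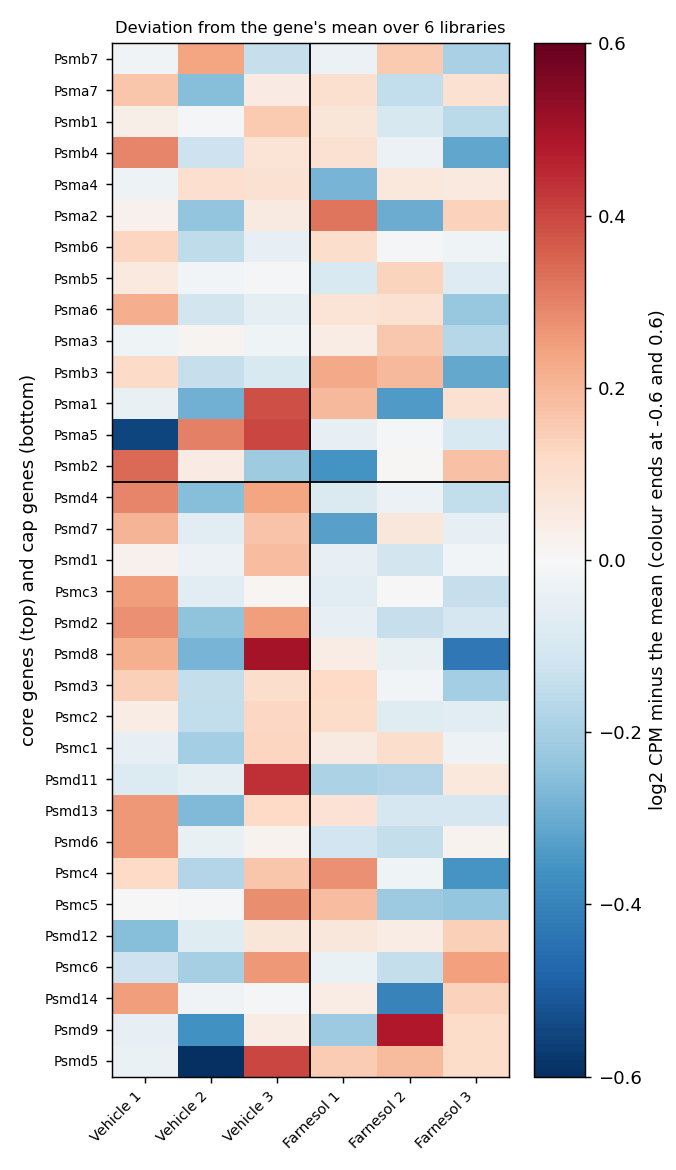
Library value minus the mean of the 6 libraries on the log2 CPM scale (colour, red above and blue below, ending at 0.6) for the 14 core and 19 cap genes with a mean of at least 10 CPM (rows, ordered by level within a class) in each library (columns). In the Psmd4 row, vehicle replicates 1 and 3 (693 and 667 CPM) are above the farnesol libraries and vehicle replicate 2 (473.9 CPM) is below them.

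Psmd14, the cap's deubiquitinase Rpn11, stood at 63.0, 52.2 and 52.6 CPM in vehicle and at 54.6, 40.1 and 58.3 CPM in farnesol libraries (log2 fold change −0.13, SE 0.18). Psmd12 of the lid was the highest of the larger cap genes, at 68.1 ± 7.78 and 76.3 ± 2.69 CPM (0.16, SE 0.16). Psmd5, Psmd9 and Psmd10 are assembly chaperones of the ATPase ring rather than subunits of the finished cap. Each lay near 10 CPM, and their log2 fold changes were 0.21 (SE 0.30), 0.27 (SE 0.28) and −0.01 (SE 0.33). Without them the cap's median was −0.13.

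The activators open the gate of the core without needing ubiquitin, and the fitted values of their genes had both signs. Psme4, the nuclear activator PA200, stood at 232, 239 and 263 CPM in vehicle and at 219.9, 193 and 244 CPM in farnesol libraries, and its fitted value was −0.16 (SE 0.15). Psme3, the nuclear PA28 gamma, stood at 46.1, 35.1 and 36.0 CPM and at 44.4, 44.8 and 38.1 CPM (0.12, SE 0.18). Groups overlapped for both genes. Psme1 and Psme2, the interferon-responsive alpha and beta subunits of PA28, lie 5913 bases apart on chromosome 14. Psme1 stood at 29.4, 27.4 and 17.8 CPM and at 21.1, 26.8 and 30.9 CPM (0.08, SE 0.23), with vehicle replicate 3 the lowest library.

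The copy of the beta subunit, Psme2b on chromosome 11, is uncertain. Its transcript matches that of Psme2 over 794 bases at 99.4% identity, so reads of the pair may have been counted for either. Psme2 stood at 9.20, 8.60 and 6.19 CPM in vehicle and at 11.6, 7.70 and 6.91 CPM in farnesol libraries, with a log2 fold change of 0.13 (SE 0.31). Psme2b stood at 25.5, 22.5 and 21.6 CPM and at 24.6, 14.6 and 22.8 CPM (−0.17, SE 0.23). Summed as 1 gene their log2 fold change was −0.09, so the direction for Psme2 depends on how the pair is counted. Over the 5 activator genes the sum was 342, 333 and 344 CPM in the vehicle libraries and 322, 287 and 342 CPM in the farnesol libraries. The fitted values were lower for 2 and higher for 3, with a median of 0.08, which was −0.0041 when Psme2 and Psme2b were summed.

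The Psmg chaperones build the alpha ring: Psmg1 with Psmg2, and Psmg3 with Psmg4, act as pairs. Psmg1 stood at 4.03, 9.51 and 4.75 CPM in vehicle and at 6.61, 11.7 and 9.80 CPM in farnesol libraries. All farnesol libraries exceeded vehicle replicates 1 and 3, and vehicle replicate 2 lay within the farnesol range. Its log2 fold change was 0.63 (SE 0.36). With 1 library left out it ranged from 0.40 (without vehicle replicate 1) to 1.09 (without vehicle replicate 2, adjusted p = 0.998 in edgeR across all genes). Counts ran from 42 to 140 per library. Its partner Psmg2 stood at 18.9, 12.04 and 14.0 CPM and at 20.8, 13.6 and 12.6 CPM (0.07, SE 0.26), which showed no such order. Psmg3 stood at 13.9, 10.7 and 16.9 CPM in vehicle and at 13.9, 10.5 and 16.0 CPM in farnesol libraries (−0.04, SE 0.26). Psmg4 stood at 11.4, 14.4 and 10.4 CPM and at 10.5, 11.3 and 9.29 CPM (−0.22, SE 0.27). The class sum was 47.0 ± 1.13 and 48.9 ± 2.57 CPM, and no chaperone had an interval within 1.5-fold.

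Psmf1, the proteasome binding protein PI31, stood at 13.4, 10.4 and 18.7 CPM in vehicle and at 12.3, 12.3 and 11.1 CPM in farnesol libraries (−0.25, SE 0.26). Vehicle replicate 3 was its highest library, and the groups overlapped. Psmc3ip stood at 2.48 ± 1.07 and 3.08 ± 1.26 CPM (0.31, SE 0.53).

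Genes that work with the proteasome but lie outside the family were read from the same fit, and 0 passed over all genes. Of 18 partners of the particle tested (receptors, deubiquitinases, assembly and import factors) 14 were lower and 4 higher. The median was −0.09 on the log2 scale, against −0.01 over all genes. Uchl5, a deubiquitinase that docks on the cap, stood at 34.9, 26.5 and 22.1 CPM in vehicle and at 16.6, 22.3 and 19.7 CPM in farnesol libraries (−0.51, SE 0.22). Farnesol replicate 2 lay just above vehicle replicate 3. Adrm1, the ubiquitin receptor that holds Uchl5, was level at 87.5 ± 7.80 and 87.1 ± 11.9 CPM. Pomp, which matures the core, stood at 256 ± 26.4 and 249 ± 54.9 CPM. Ubqln2, a shuttle for ubiquitinated proteins, had a value of −0.31 (SE 0.26) and Ipo9, an import receptor, of −0.28 (SE 0.27).

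Among 17 tested genes of proteasome gene control, 13 were lower and 4 higher, with a median of −0.05. Nfe2l1, which encodes NRF1, the factor that raises proteasome genes when the protease is inhibited, stood at 369, 423 and 378 CPM in vehicle and at 324, 405 and 403 CPM in farnesol libraries (−0.05, SE 0.15). Mafg, a small partner protein of NRF1 and NRF2, stood at 106, 119.7 and 109 CPM in vehicle and at 87.6, 74.7 and 89.7 CPM after farnesol. Its groups did not overlap, as for 8.82% of all tested genes in either direction, and its value was −0.41 (SE 0.15). Ddi2, the protease that cuts NRF1, had a value of −0.35 (SE 0.30) and Nfyb, a subunit of NF-Y, of −0.24 (SE 0.19).

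Ubiquitin supply showed no common direction, with 7 lower and 7 higher of 14 tested genes and a median of −0.01. The conjugating enzyme Ube2g1 stood at 59.5 ± 0.595 and 46.7 ± 4.50 CPM without overlap (−0.35, SE 0.17), where 4.07% of all tested genes were lower without overlap. Ube2k had a value of 0.16 (SE 0.16). The polyubiquitin gene Ubb, which cells use generally, was listed with 0 counts in 5 libraries and 3 in the other, so its value is not usable as a level.

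Among 17 muscle ubiquitin ligases and deubiquitinases 12 were lower and 5 higher, with a median of −0.08. Fbxo32, the ligase atrogin-1, stood at 1498, 1093 and 1345 CPM in vehicle and at 831, 762 and 981 CPM in farnesol libraries, which did not overlap (−0.61, SE 0.16). Of all tested genes 4.07% were lower without overlap. In this list Rbx1 was higher without overlap (0.20, SE 0.17), as were 4.75% of all tested genes. Beside Fbxo32, the subunits of the protease that receives ligase substrates lay between −0.31 (Psmd8) and 0.16 (Psmd12) in every core and cap gene of at least 40 CPM. Whether Fbxo32 and the subunits differ in their response was not tested. Trim63, the ligase MuRF1, had a value of −0.38 (SE 0.20) and Ube4b, a chain elongation factor, of −0.27 (SE 0.18).

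The genes that work with the immunoproteasome in antigen processing numbered 13 tested, with 5 lower, 8 higher and a median of 0.07. Irf9, part of an interferon-activated factor, stood at 8.92, 7.89 and 9.32 CPM in vehicle and at 3.44, 4.60 and 4.85 CPM in farnesol libraries without overlap (−1.02, SE 0.33). Lower without overlap were 4.07% of all tested genes. Tap1, a peptide transporter whose gene overlaps Psmb9, stood at 3.25 ± 2.09 and 1.85 ± 0.445 CPM (−0.80, SE 0.59). Ifngr2, a chain of the interferon-gamma receptor, had a value of 0.36 (SE 0.20).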

How the data were processed

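RNA of 6 gastrocnemius libraries (500 ng input each, Lexogen Quant-Seq kit, which primes at the poly(A) tail) was sequenced, per the labels' protocols. The deposited tables hold raw read counts per gene symbol. Bowtie2, bedtools and mm10 are named in the submitters' processing notes, and the annotation, strand rule and handling of multiply matching reads were not given in the sources used. Symbols on more than 1 line (35 of 23238) were summed. Genes kept by filterByExpr were tested with glmQLFit (robust) and glmQLFTest of edgeR 4.0.16 under R 4.3.3 after TMM scaling, with Benjamini-Hochberg adjustment over 11674 genes at 0.05. Standard errors were derived from the fitted value and its F statistic. In simulated data for this comparison (11550 genes) the fit recovered 68% of genes changed by 1 and 100% of those changed by 2 on the log2 scale. The changed genes numbered 100 of each size and were drawn from those with a mean of at least 100 counts. The recovered shares thus do not cover members of lower count. Adjustment runs over all genes together, and recovery with fewer changed genes was not tested. Among the unchanged genes 15 were called. Alternatives were DESeq2 1.42.0, limma-voom 3.58.1, other scaling and filters, the replicate number as a block, and each library left out.

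Positions are from RefSeq GRCm38.p6 and transcript lengths from GENCODE vM21. The members and lists were chosen with earlier results of these data known. Values in every library are given for the protease, activator and chaperone genes, Psmf1, Psmd2, Psmd4, Psmd11, Psmd14 and the 4 members of smallest p in each class, and up to 3 genes of smallest p are named from each pathway list, with Nfe2l1, Pomp and Adrm1. Other genes named were chosen after their values were seen. Some genes that this rule or the marker lists take in are not reported here.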

Additional observations from a re-analysis of the deposited data

How the results depend on the processing

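No proteasome gene passed under any of the 14 alternatives run. Over all genes edgeR called 13 without the filter, and 0 to 3 with 1 library left out. With the replicate number as a block it called 0 genes, as without it, and the family's median log2 fold change was −0.07. Same-numbered libraries did not deviate together (r of −0.02 to 0.06 across genes, against −0.07 to 0.04 for other pairs). The labels do not say that the numbers pair libraries, and 3 libraries per group cannot settle it. With 1 library left out the median log2 fold change lay between −0.12 and −0.02 in the family, −0.09 and 0.01 in the core, −0.17 and −0.03 in the cap, −0.13 and 0.21 in the activators and −0.13 and 0.13 in the chaperones. The same range was −0.05 to 0.28 in immunoproteasome and −0.10 to 0.03 in constitutive protease subunits. The log2 ratio of farnesol to vehicle sums ran from −0.24 to −0.07 in the cap, −0.06 to 0.01 in the core, −0.16 to −0.03 in the activators and 0.01 to 0.08 in the chaperones. The immunoproteasome to constitutive ratio differed by 0.34 on the log2 scale, with 0.17 to 0.65 when 1 library was left out, −1.04 for Psmb9/Psmb6 and 0.78 for Psmb10/Psmb7. The 5 pathway lists gave −0.12 to −0.057 for partners, −0.10 to −0.017 for gene control, −0.12 to 0.027 for ubiquitin supply, −0.21 to 0.011 for muscle ligases and −0.032 to 0.19 for antigen processing. Single genes whose sign changed when 1 library was left out ranged as follows: Psmb5 −0.098 to 0.018, Psmb6 −0.018 to 0.12, Psmb7 −0.15 to 0.062, Psmb8 −0.046 to 0.28, Psmd14 −0.24 to 0.013, Psme1 −0.12 to 0.21, Psme2 −0.13 to 0.27, Psme2b −0.32 to 0.031, Psmf1 −0.43 to 0.0010, Psmg2 −0.19 to 0.27, Psmg3 −0.20 to 0.13, Adrm1 −0.084 to 0.099, Ddi2 −0.61 to 0.065, Nfe2l1 −0.10 to 0.049 and Pomp −0.18 to 0.13. Psme2 changed sign, to −0.085, when summed with Psme2b. The cause of these changes was not tested. The Psme2 pair, the alternatives for the class sums and for the lists outside the family, and the library left out of the ratio were added after seeing the data. The median SE was 0.28 over the 19 members below 40 CPM and 0.16 over the 30 members at or above it.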
